A study of Mus musculus with 6 samples.

Results

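A set of 10 genes that act on the actin cytoskeleton through Rac and Cdc42 was followed in tumour-infiltrating CD8+ T cells: Dock2, Dock8, Dock10, Dock11, Elmo1, Vav1, Rac2, Was, Wipf1 and Coro1a. They are 10 of the 55471 genes in the tables. The list was drawn up as regulators of T cell migration and of the immune synapse, with earlier results of these data known. Dock2 itself was chosen by its higher level in the edited cells. The difference in Dock2 is therefore given as a description with no test and is counted apart from the other 9 members. Bulk RNA sequencing measured 6 libraries of OT-I T cells, which carry a single receptor against an ovalbumin peptide, and all 6 came from Cas9 knock-in OT-I cells transduced with a lentiviral guide vector. In 3 libraries the guide targeted Elovl1, an elongase of very long-chain fatty acids (sgElovl1), and in 3 it was non-targeting (sgNT). Transduced cells were picked by the marker CD90.1, given to mice whose pancreas had been implanted with KPC_OVA (a mouse pancreatic cancer line made to express ovalbumin), and sorted again as CD90.1+ cells from the primary tumour at day 7. All recipients received anti-PD-1 from the day after transfer. The transduced cells were a population and not 1 clone, sgElovl1 replicates 1 and 2 were each a pool of RNA out of 2 tumours, and the labels used here give neither age nor sex of the mice.

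The total expected count was 21980273 to 26165380 per library. Elovl1 lay at 81.5, 76.6 and 95.4 CPM (counts scaled to library size with TMM factors) in sgElovl1 replicates 1 to 3 and at 283, 280 and 255 CPM in sgNT replicates 1 to 3, which fits the labels. Cd3e (16698 to 25518 counts) and Cd8a (44942 to 69245 counts) were high in every library, as the T cell label requires. The summed level of 9 T cell markers was lower in sgElovl1, at 12262, 12114 and 13134 CPM against 15062, 14707 and 14610 CPM in sgNT, and edgeR called 3 of the 9 lower and 1 higher. Replicate 3 of both groups stood apart from replicates 1 and 2 on the second principal component (29.1% of the variance), and it also held the most counts of the epithelial keratin Krt19, with 2245 in sgElovl1 and 7502 in sgNT against 46 to 164 in the others. The summed level of 14 macrophage markers was higher in sgElovl1, at 112, 179 and 331 CPM against 44.2, 63.4 and 71.0 CPM in sgNT. Of the 14, 8 were higher without overlap and 0 lower. Over all genes tested, 37.1% did not overlap in either direction. The defining marker Adgre1 was at 0 in every sgNT library. Not all markers followed: Cd68 overlapped, at 28.9, 30.6 and 39.2 CPM in sgElovl1 against 37.3, 45.2 and 34.7 CPM in sgNT, as did Mrc1. The sum of 8 dendritic cell markers was also higher without overlap, at 153, 230 and 514 CPM against 100, 103 and 134 CPM. So were 4 of the 8 markers: Cd74, H2-Aa, H2-Ab1 and Zbtb46. The MHC class II genes Cd74 and H2-Ab1 gave most of the sum, with 286 and 136 CPM in sgElovl1 replicate 3. Xcr1 overlapped, at 26.5, 30.7 and 36.5 CPM against 37.3, 37.6 and 23.7 CPM. Flt3 and Clec9a had at most 2 counts in any library and Cd209a at most 9, so the sum does not single out dendritic cells. The sum of 8 neutrophil markers was low, at 1.37 to 5.05 CPM. Of these, 4 were higher in sgElovl1 without overlap, among them Csf3r, at 0 in every sgNT library. Ltf was lower without overlap, at 0.203, 0.0767 and 0.773 CPM against 1.2, 1.83 and 0.861 CPM. Retnlg and Camp were at 0 in all 6 libraries.

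DOCK proteins are guanine nucleotide exchange factors, which load small GTPases with GTP. DOCK2 works with its adaptor ELMO1 to activate Rac in lymphocytes, where it is needed for migration towards chemokines and for actin remodelling at the synapse, while the DOCK8, DOCK10 and DOCK11 branch acts mainly on Cdc42. Active Rac and Cdc42 then engage WAVE and WASP proteins, which switch on the Arp2/3 complex to build branched actin. Loss of DOCK2, DOCK8, RAC2, WAS, WIPF1 or CORO1A causes immunodeficiency in humans.

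The windows below show the start regions of the 5 DOCK and ELMO genes, the members whose rise is described here, as RefSeq gives them on GRCm38.p6 (300 bases around the annotated start, read 5′ to 3′ on the gene's strand). Capitals mark AGGAAGT, an ETS-type motif (reverse complement ACTTCCT) that was chosen after the sequences were seen.
Dock2, chr11:34783856-34784155, minus strand: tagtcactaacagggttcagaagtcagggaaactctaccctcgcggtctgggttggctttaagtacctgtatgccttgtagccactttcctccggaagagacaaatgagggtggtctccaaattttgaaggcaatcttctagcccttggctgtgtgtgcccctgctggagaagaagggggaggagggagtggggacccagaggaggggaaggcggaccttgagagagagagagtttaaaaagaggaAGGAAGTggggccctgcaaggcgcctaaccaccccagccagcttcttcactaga
Elmo1, chr13:20090257-20090556, plus strand: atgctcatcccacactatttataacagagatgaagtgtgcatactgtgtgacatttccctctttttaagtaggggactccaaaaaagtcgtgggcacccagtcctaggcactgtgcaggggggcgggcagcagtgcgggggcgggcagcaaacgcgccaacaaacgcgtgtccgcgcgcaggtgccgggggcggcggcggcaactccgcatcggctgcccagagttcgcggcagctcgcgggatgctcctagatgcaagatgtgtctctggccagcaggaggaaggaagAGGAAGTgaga
Dock10, chr1:80758504-80758803, minus strand: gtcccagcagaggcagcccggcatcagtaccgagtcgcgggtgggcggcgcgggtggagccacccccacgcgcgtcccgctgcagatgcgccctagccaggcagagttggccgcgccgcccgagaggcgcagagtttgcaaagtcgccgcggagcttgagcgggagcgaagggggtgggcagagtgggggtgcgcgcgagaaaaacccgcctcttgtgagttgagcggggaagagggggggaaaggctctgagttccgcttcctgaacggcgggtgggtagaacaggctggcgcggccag
Dock8, chr19:24999279-24999578, plus strand: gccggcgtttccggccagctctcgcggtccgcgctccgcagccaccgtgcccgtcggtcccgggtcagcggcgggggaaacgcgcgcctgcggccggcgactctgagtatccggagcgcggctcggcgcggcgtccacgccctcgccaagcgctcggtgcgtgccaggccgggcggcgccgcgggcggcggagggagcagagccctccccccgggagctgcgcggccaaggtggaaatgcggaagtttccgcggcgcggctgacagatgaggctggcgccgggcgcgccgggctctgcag
Dock11, chrX:35888582-35888881, plus strand: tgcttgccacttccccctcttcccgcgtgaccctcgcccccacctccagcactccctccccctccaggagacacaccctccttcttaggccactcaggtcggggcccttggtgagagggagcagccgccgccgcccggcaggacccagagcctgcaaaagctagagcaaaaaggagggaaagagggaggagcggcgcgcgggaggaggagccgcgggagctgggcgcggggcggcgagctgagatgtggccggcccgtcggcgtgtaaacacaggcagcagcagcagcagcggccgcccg

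The motif occurred once in the Dock2 and Elmo1 windows and was absent from the Dock8, Dock11 and upstream Dock10 windows. Of all 32851 RefSeq start windows, 9.35% held it on either strand. It also occurred once in the windows of Vav1 and Was and in an internal window each of Dock10 and Wipf1. RefSeq windows were found for 9 of the 10 members, Rac2 being the exception. A match describes letters in a window and is not evidence of a bound factor.

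The clearest pattern among the members was a higher level of the 5 DOCK and ELMO genes in sgElovl1, while the GTPase Rac2 was lower and Vav1, Was, Wipf1 and Coro1a were not called in either direction. By edgeR's quasi-likelihood test over 12546 genes (n = 3 per group), 4 of the other 9 members were called higher at an adjusted p under 0.05 (Dock8, Dock10, Dock11 and Elmo1) and 1 was called lower (Rac2), against 8.64% of all genes called higher and 5.13% called lower. All 10 members passed the filter on low counts. The CPM of the 3 sgElovl1 libraries did not overlap with that of the 3 sgNT libraries for 7 of the other 9 members, against 37.1% of all genes. The members were listed with earlier results of these data known, so these counts describe the list and are not an independent test. In these bulk libraries fewer cells of a type and less RNA per cell cannot be told apart. The p-values set the group difference against the spread between these libraries. That spread mixes pools of 2 tumours (sgElovl1 replicates 1 and 2) with libraries of 1 tumour (sgElovl1 replicate 3 and every sgNT library).

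**Figure D1:**
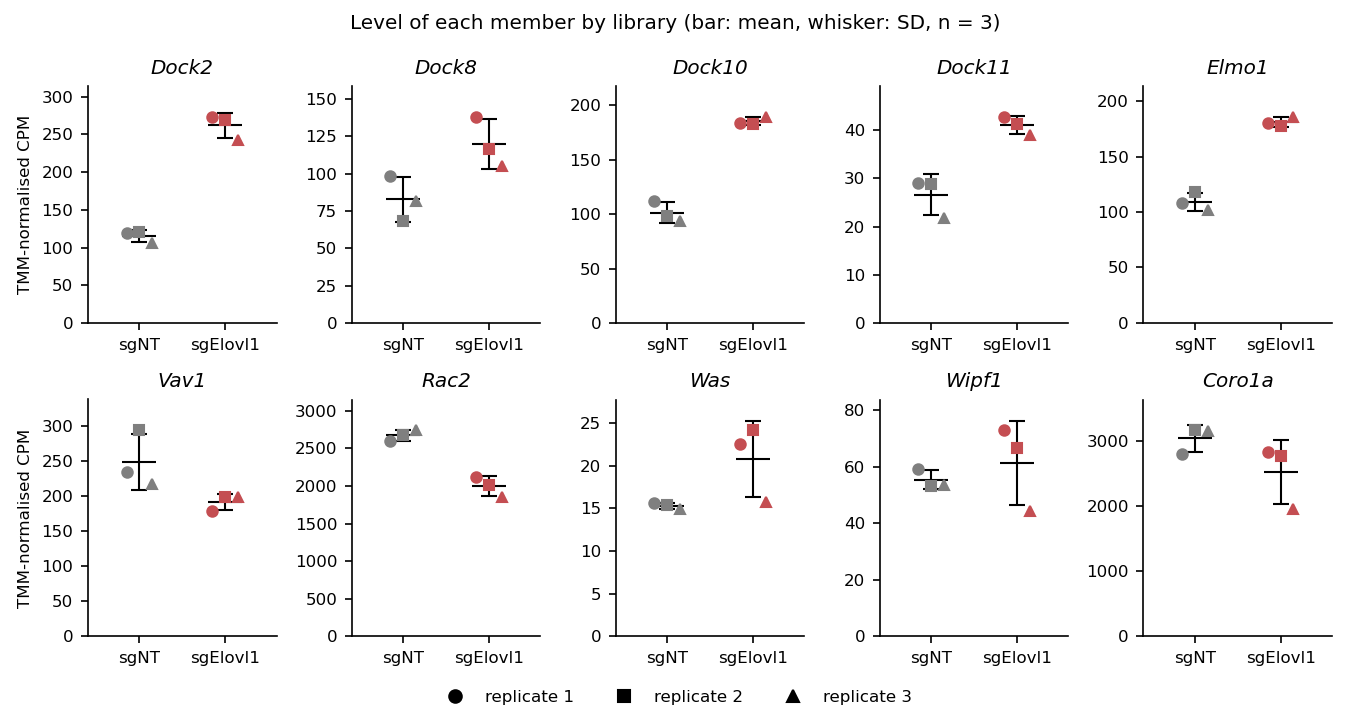
TMM-normalised CPM (y axis, starting at 0) of each member in the sgNT and sgElovl1 libraries, with circles, squares and triangles for replicates 1, 2 and 3, a bar for the mean and whiskers for the SD (n = 3). All 3 sgElovl1 points lie above all 3 sgNT points for the DOCK and ELMO genes, and below them for Vav1 and Rac2.

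Dock2 (ENSMUSG00000020143, chr11:34226815-34783892, minus strand), the main Rac activator of lymphocytes, stood at 273, 270 and 243 CPM in sgElovl1 replicates 1 to 3 and at 120, 120 and 106 CPM in sgNT replicates 1 to 3. The lowest edited library was therefore more than 100 CPM above the highest control. The group means were 262 ± 16.7 and 115 ± 8.02 CPM (SD, n = 3), a ratio of 2.27 and a log2 fold change of 1.18 (SE 0.11). These are the values that selected the gene.

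Elmo1, the adaptor that binds DOCK2 and holds it active at the membrane, was at 180, 178 and 186 CPM in sgElovl1 against 108, 118 and 102 CPM in sgNT. The spread within each group was small beside the gap between them. Elmo1 rose by a log2 fold change of 0.73 (SE 0.11, edgeR quasi-likelihood adjusted p = 0.003, n = 3 per group), and its highest adjusted p with any 1 library left out was 0.0275.

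Dock10, an exchange factor of the Cdc42 branch, lay at 184, 183 and 189 CPM in sgElovl1 and at 112, 98.5 and 93.8 CPM in sgNT. It was the member outside Dock2 with the largest rise, a log2 fold change of 0.87 (SE 0.11, edgeR adjusted p = 0.00161, n = 3 per group). Its call held with any 1 library left out (highest adjusted p 0.0203) but was lost with replicate 2 of both groups left out (0.0913), as was that of Elmo1 (0.0939).

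Dock8, which activates Cdc42 and keeps migrating T cells intact in dense tissue, was at 138, 117 and 105 CPM in sgElovl1 and at 98.3, 68.3 and 81.8 CPM in sgNT. The lowest edited library was only just above the highest control. The log2 fold change was 0.54 (SE 0.15, edgeR adjusted p = 0.0401, n = 3 per group), and the call was lost without sgElovl1 replicate 1 (adjusted p 0.165), sgElovl1 replicate 2 (0.138), sgNT replicate 2 (0.156) or sgNT replicate 3 (0.0821).

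Dock11, a Cdc42 exchange factor whose own gene lies on the X chromosome, reached 42.8, 41.2 and 39.1 CPM in sgElovl1 against 29.1, 28.9 and 21.7 CPM in sgNT. The lowest of the DOCK members in level, it rose by a log2 fold change of 0.63 (SE 0.14, edgeR adjusted p = 0.0155, n = 3 per group). The call was lost without sgElovl1 replicate 1 (0.0743), sgElovl1 replicate 2 (0.0862) or sgNT replicate 2 (0.0567).

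Rac2, the blood-cell Rac GTPase that DOCK2 and VAV1 load, went the other way. Its level was 2117, 2012 and 1852 CPM in sgElovl1 and 2598, 2679 and 2738 CPM in sgNT. The groups did not overlap, yet the log2 fold change of -0.42 (SE 0.13) sat at the edge of the threshold (edgeR adjusted p = 0.0482, n = 3 per group). With the replicate number as a block the adjusted p was 0.0615, and with 1 library left out it was 0.0269 without sgElovl1 replicate 3 and between 0.0825 and 0.182 without any other.

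Vav1, the exchange factor next to the T cell receptor, was at 179, 199 and 200 CPM in sgElovl1 and at 235, 294 and 218 CPM in sgNT. The groups did not overlap, with a log2 fold change of -0.37 (SE 0.13) and an adjusted p of 0.0787 by edgeR (n = 3 per group). DESeq2 gave it an adjusted p of 0.0385.

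Was encodes WASP, the Arp2/3 activator of blood cells, and Wipf1 encodes WIP, which protects WASP from breakdown. Was stood at 22.6, 24.1 and 15.8 CPM in sgElovl1 and at 15.6, 15.4 and 14.9 CPM in sgNT, so that sgElovl1 replicate 3 was close to the controls. Its log2 fold change was 0.45 (SE 0.17, edgeR adjusted p = 0.0962, n = 3 per group), and the adjusted p was 0.0141 without sgElovl1 replicate 3. Wipf1 overlapped between groups, at 72.9, 66.8 and 44.5 CPM against 59.3, 53.3 and 53.7 CPM (log2 fold change 0.15, SE 0.17, edgeR adjusted p = 0.57, n = 3 per group).

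Coro1a, an actin-binding protein that T cells need for survival and migration, was at 2835, 2775 and 1959 CPM in sgElovl1 and at 2799, 3160 and 3154 CPM in sgNT. The groups overlapped, and sgElovl1 replicate 3 was the lowest of the 6 libraries (log2 fold change -0.27, SE 0.16, edgeR adjusted p = 0.276, n = 3 per group). Coro1a shares its locus with Bola2 on the opposite strand, whose mean expected count of 646 was small beside the 42845 to 81061 counts of Coro1a. Fam196b lies on the opposite strand within Dock2, and its highest expected count was 72 against at least 2564 for Dock2. The strand setting of the counting is not given in the sources used here, so reads from such overlaps cannot be assigned with certainty.

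Levels between genes were compared per length, in TPM (transcript shares scaled by length and library). Coro1a and Rac2 were the most abundant members, at 2438 ± 208 and 1650 ± 190 TPM in sgNT (SD, n = 3), followed by Vav1 at 94.1 ± 20.5 TPM. Next in sgNT came Elmo1 at 26.1 ± 3.30, Dock10 at 25.6 ± 4.58 and Dock2 at 20.8 ± 2.7 TPM, neighbours whose means differed by less than or about as much as their SD. Dock8 at 15.4 ± 3.30 and Wipf1 at 13.9 ± 1.08 TPM did not differ beyond their spread, and Was (8.41 ± 0.578) and Dock11 (5.97 ± 1.28) were the least abundant.

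In sgElovl1 Dock2 was at 60.5 ± 4.31, Elmo1 at 56.2 ± 0.966 and Dock10 at 49.9 ± 5.72 TPM, again neighbours about 1 SD apart whose order was not the same in every library. Dock8 at 23.2 ± 2.48 and Dock11 at 7.12 ± 0.506 TPM stayed the lowest of the 5. The 4 DOCK members together gave 141, 142 and 140 TPM in sgElovl1 and 77.3, 67.7 and 58.0 TPM in sgNT. Dock2 made up 44.4, 44.8 and 39.8% of that sum in sgElovl1 and 28.6, 33.2 and 30.4% in sgNT, and Dock11 5.23, 5.26 and 4.69% against 8.25, 10.3 and 7.83%, in each case without overlap. These shares contain Dock2 and describe the choice as much as the cells.

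The DOCK and ELMO genes are long, and long genes as a class were higher in sgElovl1. Dock2 spans 557078 bases of the genome, Elmo1 517758, Dock10 257455, Dock8 202899 and Dock11 187731, whereas Wipf1 spans 100125, Vav1 48932, Rac2 13617, Was 9046 and Coro1a 8015. Among all genes tested, the median log2 fold change was -0.06 for spans under 10 kb, -0.05 from 10 to 50 kb, 0.15 from 50 to 100 kb, 0.22 from 100 to 200 kb and 0.19 from 200 kb upwards. In the last class, 19.6% of 378 genes were called higher. Within that class, 29 genes, Dock2 included, had a fold change at or above that of Dock2, which lay at percentile 92.3, and Dock10 and Elmo1 lay at percentiles 84.7 and 80.4.

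**Figure D2:**
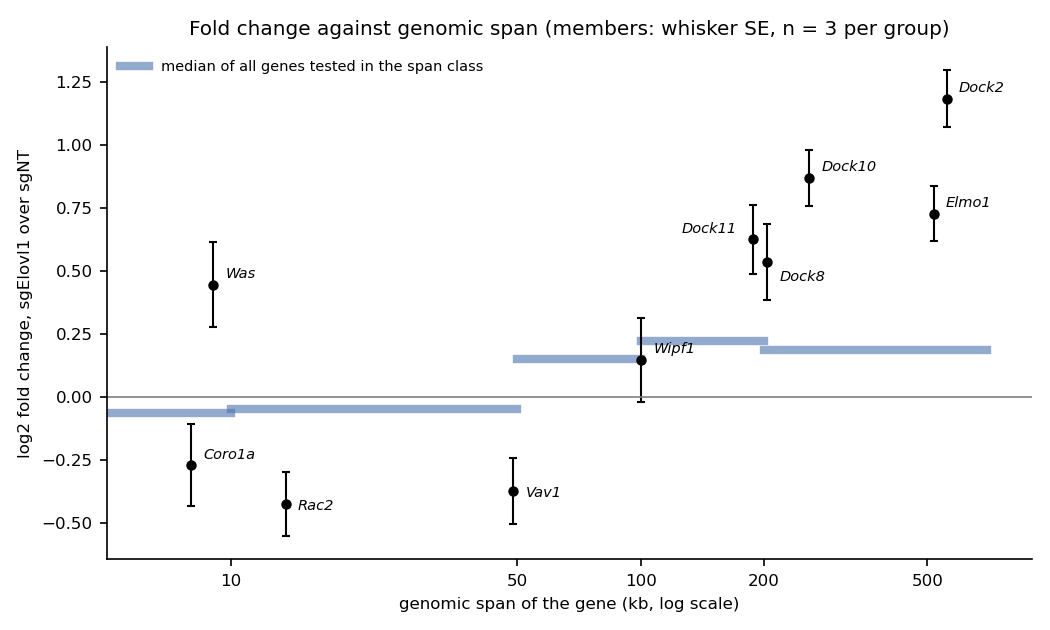
log2 fold change of sgElovl1 over sgNT (y axis) against genomic span in kb (x axis, log scale) for the 10 members, with SE whiskers (n = 3 per group), and the median of all tested genes per span class as blue lines. The medians pass from -0.06 under 10 kb to 0.19 from 200 kb upwards, and the 5 DOCK and ELMO genes lie above the median of their class.

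The fit was therefore repeated with the smooth trend of level on length taken out of each library, for transcript length, for genomic span and for both together. Dock10 kept its call in all 3, with log2 fold changes of 0.56, 0.62 and 0.42 and adjusted p of 0.0151, 0.00743 and 0.0409. Elmo1 kept it for each trend alone (0.43 in either case, adjusted p 0.0324 and 0.0303) and lost it with both removed (0.23, adjusted p 0.216). The smaller rises did not hold. Dock8 stood at 0.19 and 0.30 with adjusted p of 0.368 and 0.183 for transcript length and span, and Dock11 at 0.29 and 0.39 with adjusted p of 0.18 and 0.0719. The fold change of Dock2 was 0.85, 0.88 and 0.64 on the log2 scale.

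Among the other members, Vav1 became more negative, at -0.48 and -0.47, and passed the threshold (edgeR adjusted p 0.0343 and 0.0363, n = 3 per group), whereas Rac2 lost its call at -0.31 and -0.36 (0.119 and 0.0818). Wipf1 changed sign, from 0.15 to -0.16, -0.05 and -0.24.

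**Figure D3:**
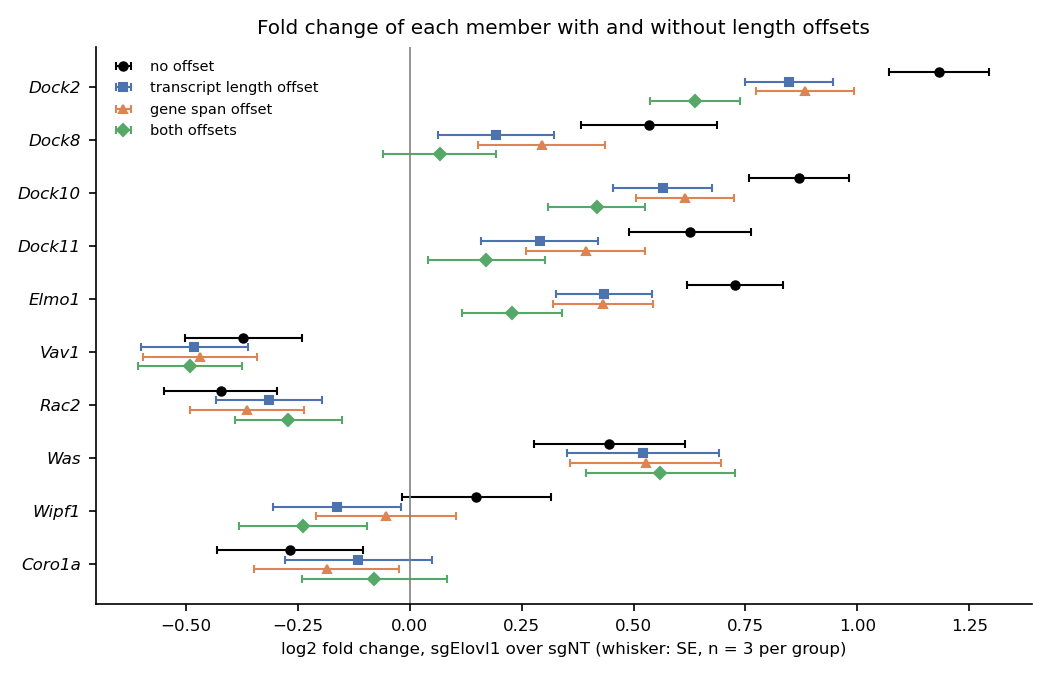
log2 fold change of each member (x axis; whiskers are SE, n = 3 per group) with no offset and with the transcript length, gene span and both trends removed. Dock2 goes from 1.18 to 0.64 and Dock10 from 0.87 to 0.42 with both removed, Dock8 reaches 0.07, and Vav1 moves from -0.37 to -0.49.

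Other measures moved with the groups too. The macrophage sum (331 CPM) and the dendritic cell sum (514 CPM) were highest in sgElovl1 replicate 3, the edited library in which Dock2, Dock8 and Dock11 were lowest and Dock10 and Elmo1 were highest. Csf1r, the receptor that defines macrophages, gave 25, 57 and 158 counts in sgElovl1 and 0, 3 and 26 in sgNT, while Cd68 overlapped between the groups without a rise in every edited library. The sum of 10 dissociation stress genes was 3001, 2964 and 2027 CPM in sgElovl1 against 1763, 1758 and 1608 CPM in sgNT. Malat1 and 4 other RNAs that stay in the nucleus summed to 1595, 1926 and 2902 CPM against 1504, 483 and 713 CPM. Macrophages and dendritic cells also express several of the members. The part of these cells, of stress genes and of nuclear RNA in the differences of the members was not tested.

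The deposited tables also give each gene's transcript length weighted by the abundance of its isoforms, a readout of the isoform mix that the choice of members did not use except through Dock2. For Dock11 it was 6335, 6274 and 6290 bases in sgElovl1 and 4842, 4649 and 4781 bases in sgNT. The edited cells had the larger weighted length in every library. The annotated Dock11 transcripts run from 619 to 6665 bases, and which of them differed cannot be read from this value. The difference of 1542 bases was called by limma (adjusted p = 0.0144, n = 3 per group), as were 0.125% of the 10401 genes whose length varied.

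Elmo1 moved the opposite way, to 3642, 3769 and 3555 bases in sgElovl1 from 4318, 4576 and 4546 bases in sgNT. The limma adjusted p was 0.0942 (n = 3 per group). The annotated Elmo1 transcripts run from 552 to 5464 bases. Dock2 was shorter too, at 4845, 4890 and 4674 bases against 5680, 5936 and 5942, given here as a description.

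The weighted length of Wipf1 was 4084, 3735 and 4133 bases in sgElovl1 and 4370, 4150 and 4276 bases in sgNT, the third of the other 9 members whose groups did not overlap, against 20.4% of genes (limma adjusted p = 0.477, n = 3 per group). For each of Dock11, Elmo1 and Wipf1 an exact two-sided permutation test gave 0.1, the smallest p that 3 against 3 libraries allow. Dock8, Dock10, Rac2, Vav1, Was and Coro1a overlapped between groups, with differences between -78.5 and 6.63 bases in their means.

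**Figure D4:**
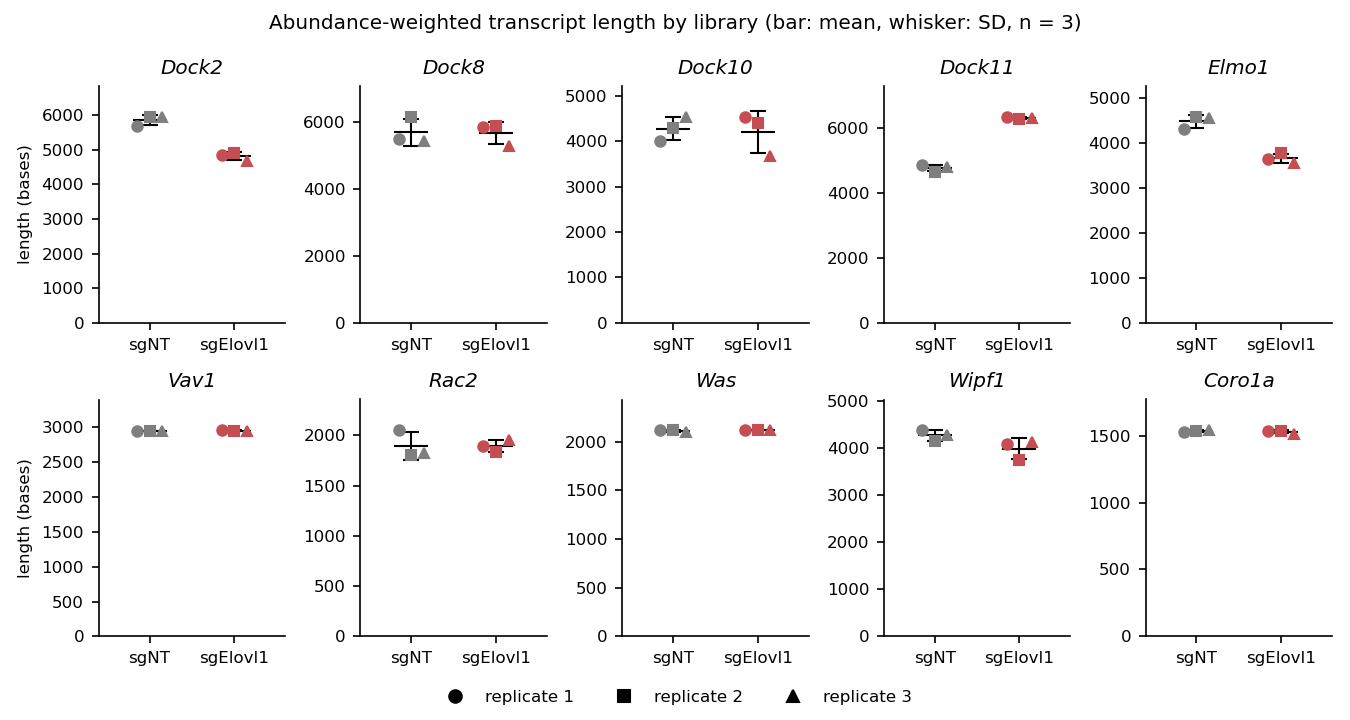
Abundance-weighted transcript length in bases (y axis, starting at 0) of each member by library, with a bar for the mean and whiskers for the SD (n = 3 per group). Dock11 lies at 6274 to 6335 bases in sgElovl1 and 4649 to 4842 in sgNT, while Dock2 and Elmo1 are shorter in sgElovl1 and Vav1, Was and Coro1a hardly move.

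TPM divides by this length. The ratio of Dock11 was smaller in TPM than in CPM, at 1.19 (5.97 TPM in sgNT and 7.12 TPM in sgElovl1) against 1.54, and limma on log2(TPM + 1) did not call it (adjusted p 0.418). Elmo1 and Dock2 had larger ratios in TPM, of 2.15 against 1.66 and 2.92 against 2.27.

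Other DOCK and ELMO genes showed smaller differences. Elmo2, the second ELMO of T cells, was at 116 CPM in sgElovl1 and 99.7 CPM in sgNT (log2 fold change 0.22, edgeR adjusted p = 0.281, n = 3 per group). Dock5 had 8.89 and 8.55 CPM, Dock9 7.92 and 6.39 CPM, Dock6 0.505 and 0.629 CPM and Elmo3 1.76 and 2.00 CPM. Of the 5 tested, 0 were called by edgeR, 0 by DESeq2 and 0 had an unadjusted p under 0.05. The difference between these genes and the 5 members was not tested.

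In a wider set of 192 actin regulators, 173 were tested, of which 24 were called higher and 8 lower (13.9 and 4.62%), with a median log2 fold change of 0.09 against 0.00 over all genes, of which 8.64% were called higher and 5.13% lower. With the transcript length trend removed 9 were higher and 5 lower, and with the span trend 12 and 9. The share called higher was then close to that of all genes, at 5.2% against 5.75% for transcript length and 6.94% against 6.89% for span. The counts also moved when 1 library was left out. Without sgElovl1 replicates 1, 2 and 3 they were 10 higher and 2 lower, 6 and 2, and 31 and 18. Without sgNT replicates 1, 2 and 3 they were 15 and 4, 8 and 1, and 23 and 7. The counts over all genes, 1084 higher and 643 lower, moved in the same directions. They became 384 and 81, 279 and 42, and 1414 and 1304 without sgElovl1 replicates 1, 2 and 3. Without sgNT replicates 1, 2 and 3 they became 796 and 176, 334 and 64, and 914 and 424.

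Exchange factors outside the DOCK family gave 5 higher and 1 lower of 19 tested (26.3 and 5.26%, against 8.64 and 5.13% of all genes). They included Akap13, an anchoring protein that is also an exchange factor (0.73 on the log2 scale), Arhgef6, also known as alpha-PIX and acting on Rac and Cdc42 (0.56), and Vav3, a relative of Vav1 (0.64). Def6, an exchange factor active after T cell receptor stimulation, was lower (-0.61). Vav1 and Vav3 thus had fold changes of opposite sign, which was not tested as a difference.

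Among GTPase brakes, 4 of 24 were higher and 2 lower (16.7 and 8.33%, against the same shares of all genes). Arhgap19, a GTPase-activating protein of lymphocytes, rose by 1.28 on the log2 scale, and Arhgap11a (0.62) and the myosin Myo9b (0.59), which carries a GTPase-activating domain, rose too. Arhgdib, the blood-cell GDP-dissociation inhibitor that holds Rac2 in the cytosol, fell by 0.77, and the Rac and Cdc42 brake Arhgap9 fell by 0.45.

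Downstream, the WAVE subunits Abi2 (1.12) and Abi3 (-0.91) moved in opposite directions. Washc4 of the WASH complex rose by 0.90 and the diaphanous formin Diaph2 by 0.70. Of the Arp2/3 complex, Actr2 was called higher (0.58) while the other 9 of 10 subunits had a negative fold change with no call. Over all genes, 6318 of 12546 had a negative fold change. Actr2 had a mean weighted length of 3167 bases and the other 9 had 848 to 2184 bases. Over all genes the median was -0.13 under 1.5 kb, -0.07 from 1.5 to 3 kb and 0.26 from 3 to 5 kb. Actr2 was not called with the transcript length trend removed (edgeR adjusted p 0.0631) or with both trends removed (0.0665), but kept its call with the span trend removed (0.033). The part of length in these differences was not tested. In a mixed list of WASP partners, adaptors and signalling genes, not all of which bind WASP, Mob1a (0.73), Lrch1 (0.45) and the adaptor Crkl (0.52) were higher. The WASP-binding Pstpip1 (-0.57) and the adaptor Grb2 (-0.57) were lower.

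Of genes that turn over or bind filaments, the cofilin phosphatase Ssh2 rose by 1.48, the cyclase-associated protein Cap1 by 1.00, and Gmfb, which debranches actin, by 0.46. The capping protein subunit Capzb fell by 0.51 and Cdc42se1, a small Cdc42 effector, by 0.41. Iqgap2 (0.79), the non-muscle myosin heavy chain Myh9 (0.61), the membrane linker moesin, Msn (0.49), and adducin 3, Add3 (0.45), were higher. Of the 24 genes called higher here, several, such as Akap13, Vav3 and Diaph2, are also long genes of 299076, 345046 and 716093 bases.

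**Figure D5:**
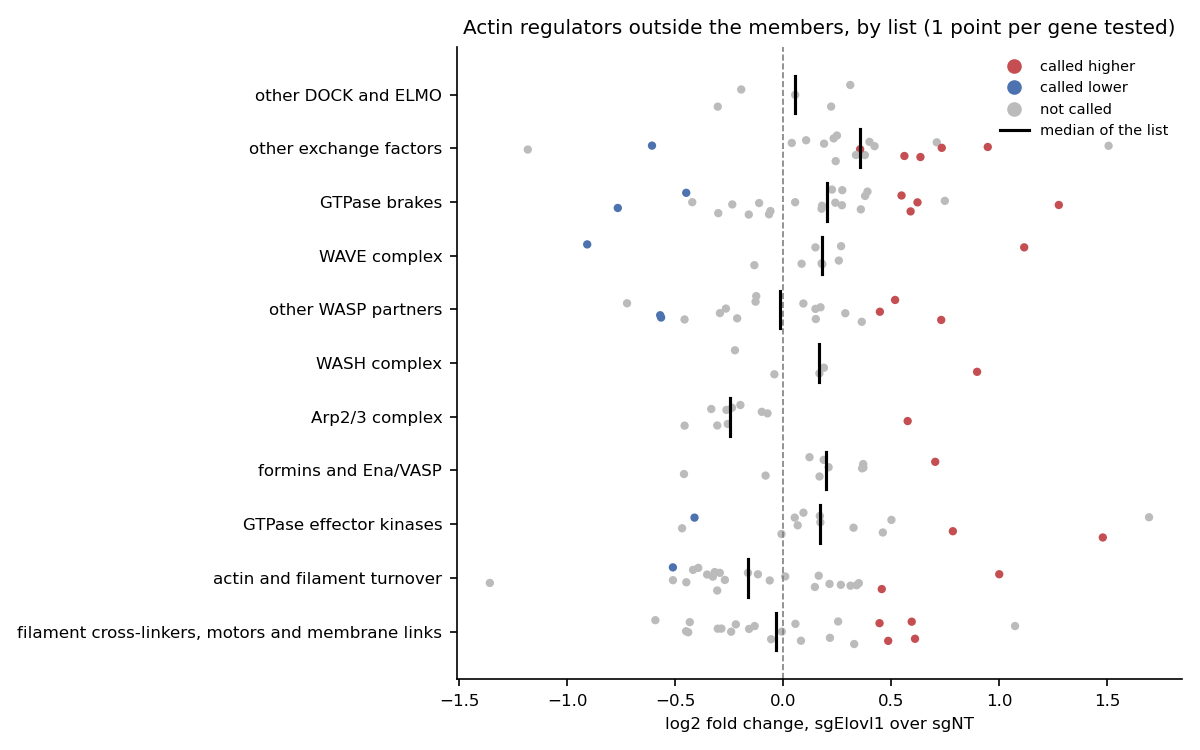
log2 fold change of sgElovl1 over sgNT (x axis) for tested actin regulators outside the members, by list (small GTPases not drawn), with red and blue points for genes called higher and lower by edgeR (n = 3 per group) and a black line for each list's median. The Arp2/3 complex (median -0.25) lies mostly left of 0, and the other exchange factors (0.36) mostly right. No length trend was removed from these values.

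The genes whose profile over the 6 libraries was most like that of Dock2, by the root mean square difference of centred log2 CPM among 6155 genes with a mean of at least 20 CPM, were Pola1 (0.0759), Macf1 (0.125), Ralgapa1 (0.127), Chd7 (0.129) and Itgb3 (0.129). They encode the catalytic subunit of DNA polymerase alpha, a crosslinker of microtubules and actin, a subunit of the Ral GTPase-activating complex, a chromatin remodeller and the integrin beta 3 chain. Among the members Dock10 came closest, at rank 27 (0.179), followed by Elmo1 at rank 95, Dock11 at 172 and Dock8 at 387. Wipf1 was at rank 1702, and Coro1a, Vav1 and Rac2 were at ranks 4660, 5196 and 5486 of 6155. The distance is measured to the values that selected Dock2. The order of the members follows their log2 fold changes, so it restates the group differences and is no further result.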

How the data were processed

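Per the submitters' processing notes, reads from SMARTer complementary DNA were aligned to mm10 with STAR 2.7.7a and quantified with RSEM 1.3.1, and DESeq2 1.36.0 was used by the authors for their own comparison. The annotation release and the strand setting are not given in the sources used here. The deposited gene tables hold expected counts, TPM and an abundance-weighted transcript length in bases (columns made by the authors with RSEM). The deposited expected counts are unscaled estimates of read pairs per gene and were rounded to whole numbers. The deposited TPM values are scaled by length and library. Of 55471 gene IDs, 55144 matched GENCODE M21 on GRCm38, whose coordinates are printed. Group labels came from the sample titles.

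Groups were compared with R 4.3.3 and edgeR 4.0.16, after filterByExpr (minimum count 10) and TMM scaling, by robust quasi-likelihood fits with group as the only term, and Benjamini-Hochberg adjustment over 12546 genes, with calls at an adjusted p under 0.05. Levels are TMM-normalised CPM, fold changes are sgElovl1 over sgNT, and marker sums are CPM without TMM factors. The common biological coefficient of variation was 0.22. Lengths were tested with limma 3.58.1 on log2 values. The scripts were tested on simulated data.

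Same-numbered libraries deviated together (correlations 0.212, 0.245 and 0.405), so a replicate block was fitted as an alternative, on the data and not on the labels. The main fit does not use this pairing. Replicates 1 and 2 were hardly told apart, since unlike numbers gave 0.169 and 0.107 there. Alternatives were DESeq2 1.42.0, limma-voom, limma on log2(TPM + 1), other filters, offsets for transcript length and genomic span, a replicate block and leaving out libraries. The limma fit of lengths, the fits without replicate 1 or 2 of both groups and the fit with both offsets were added after seeing the data. The members and lists were chosen with earlier results of these data known. Named genes are all members, up to 3 called genes with the smallest p per wider list and direction, the 5 profiles most like Dock2 (predicted, RIKEN and pseudogene names left out) and Elovl1. Of the wider symbols, Arhgap26 and Myl12b were not matched. Elmo2, Elmo3, Dock5, Dock6 and Dock9 were named after their values were seen. Some genes and 1 wider list are not reported here.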

Additional observations from a re-analysis of the deposited data

How the results depend on the processing

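Of the 9 members other than Dock2, the 4 called higher were 4 with DESeq2, limma-voom, either other filter and the replicate block. They were 2 with limma on log2(TPM + 1), with the transcript length offset and with the gene span offset, and 1 with both offsets. Leaving out 1 library gave 2 to 5, and leaving out a replicate number of both groups 0 to 6, where the 0 came from edgeR without replicate 2 (3 members at an unadjusted p under 0.05). The single member called lower became 2 with DESeq2. It became 0 with edgeR without a filter, with at least 1 CPM in 3 libraries and with the replicate block (2 members at an unadjusted p under 0.05 in each), and 0 with limma on log2(TPM + 1) (1 member). Leaving out 1 library gave 0 to 1 and leaving out a replicate number 0 to 2, with 0 to 2 members at an unadjusted p under 0.05. In the wider set, the 24 called higher became 9 with the transcript length offset, 12 with the gene span offset and 9 with both, 6 to 31 with 1 library left out and 0 to 46 with a replicate number left out. The 8 called lower became 20 with DESeq2, 5 with limma on log2(TPM + 1) and 5 with the transcript length offset, 1 to 18 with 1 library left out and 0 to 25 with a replicate number left out. The counts of 0 there came from edgeR without replicate 2 of both groups, where 24 genes above and 8 below had an unadjusted p under 0.05. The log2 fold change of Wipf1 reversed to -0.16, -0.053 and -0.24 with the transcript length, gene span and both offsets. Apart from Rac2 (adjusted p 0.0615), the replicate block changed no other member's call. Over all genes, 1084 were higher and 643 lower, against 1396 and 1088 with DESeq2, 838 and 179 with limma on log2(TPM + 1), and 25 and 5 without replicate 2 of both groups. With 1 library left out, 279 to 1414 of all genes were higher and 42 to 1304 lower.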
